A study of Mus musculus with 4 samples.

Results

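The complement genes C1qa, C1qb, C1qc, C4b, Cfb, C3 and Hc were followed, cell type by cell type, in mouse lung cells on the day of isolation and during organoid culture. The 7 genes were matched by symbol, and each had 1 row among the 22547 features of the count tables. The sorted lung cells came from mice of the genotype Gramd2creERT2;mTmG. In these mice a tamoxifen-dependent Cre under control of Gramd2 switches a reporter from membrane tdTomato to membrane EGFP. Day 0 was the population sorted by flow cytometry for GFP. Days 8, 13 and 20 were organoids, grown from such sorted cells that shared a Matrigel culture with MLg cells, an established mouse lung fibroblast line. The cultures held 10% fetal bovine serum and SB 431542, an inhibitor of the TGF-beta type I receptor, and their cells were enriched with EpCAM antibody beads before loading. Each day was 1 library of single cells, so no value below has a replicate and no test between days was possible. Intervals are exact 95% Poisson or binomial limits and cover counting error alone, not the spread between cultures or animals.

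Complement is a cascade of plasma and tissue proteins that tags surfaces for removal and recruits leukocytes. C1q, built from the chains encoded by C1qa, C1qb and C1qc, recognises antibody, dying cells and other ligands, and starts the classical pathway by activating the proteases C1r and C1s, which cleave C4 and C2. C3 is the central component on which all pathways converge, factor B (Cfb) supplies the protease of the alternative pathway convertase, and C5 (Hc, named for hemolytic complement in the mouse) opens the terminal pathway that ends in the membrane attack complex. Most circulating complement is made by the liver, whereas C1q is known as a product of tissue macrophages and dendritic cells, and lung epithelial, mesothelial and stromal cells also make some components.

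The libraries held 8902, 11390, 11445 and 10368 cell barcodes at days 0, 8, 13 and 20. After filtering and removal of doublet-like barcodes, 6827, 7174, 8458 and 8417 cells were used, with a median of 2555, 16706, 9301 and 12201 unique molecular identifiers (UMIs) per cell. Any pair of libraries had 13 to 28 barcodes in common, at most 0.41% of the smaller library. The labels call the cells alveolar epithelial, but the marker genes placed most used cells elsewhere. Macrophage-like cells numbered 876 of 6827 at day 0 and 5850, 5297 and 4398 in the cultures, and fibroblast-like cells 131, 494, 1203 and 2810. Alveolar type 2 (AT2)-like cells numbered 83, 387, 474 and 600. Airway secretory-like cells were numerous enough for sums at days 13 (208 cells) and 20 (189 cells), and mesothelial-like cells were found at day 0 (150 cells). Another 249 day 0 cells, led by Scgb3a2, Scgb1a1 and Cyp2f2, were left unnamed among leukocyte sub-clusters and are not counted as secretory here. The macrophage class held 12 or more of 13 macrophage markers at 5 or more CPM on every day, the AT2 class 12 of 12, the mesothelial class 8 of 8 and the fibroblast class 12 of 12 at day 0 and 9 of 12 in culture. Classes below are named by these markers, and a level in CPM is the class's UMIs for a gene per 1000000 of all its UMIs. Day 0 differed from the cultures in cell source, sort and depth together, and these cannot be told apart. The map of levels by class and day shows all members side by side.

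**Figure D1:**
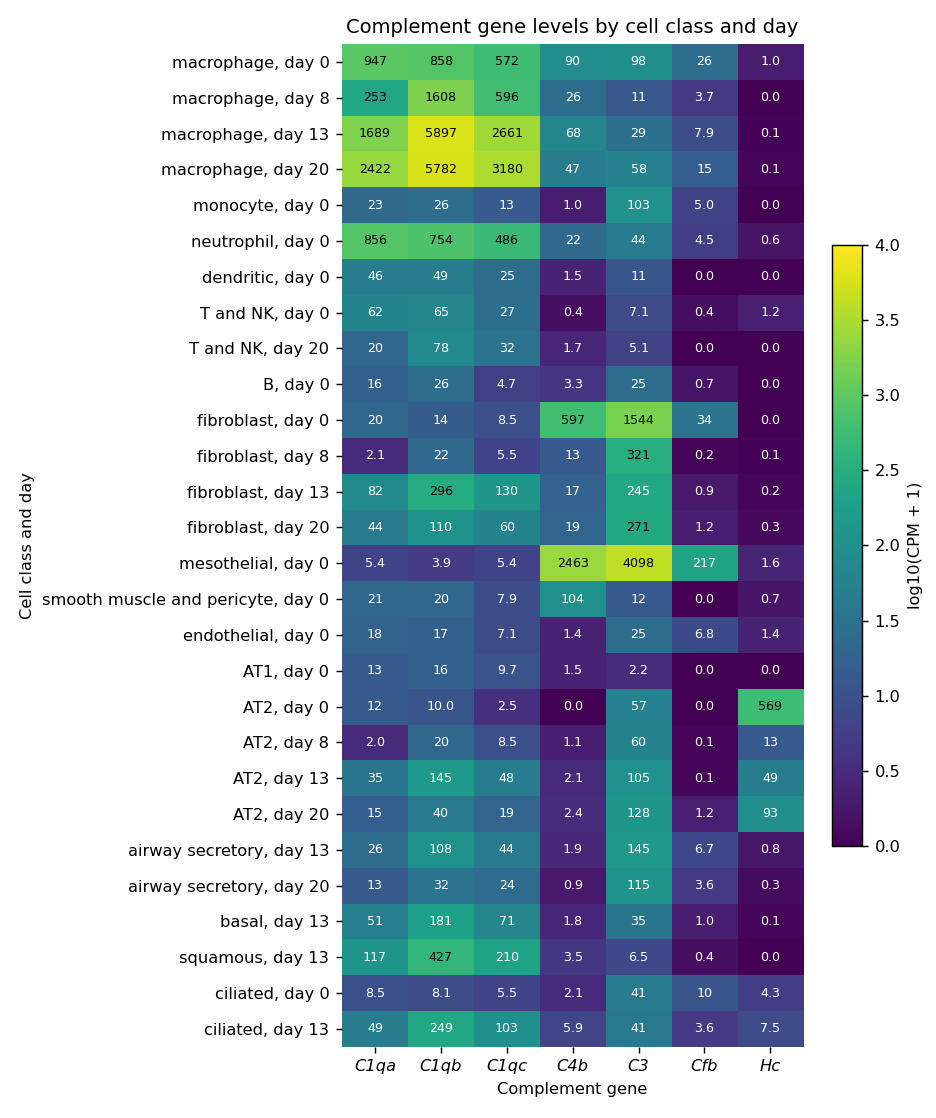
Level of the 7 complement genes (columns) in each class of at least 50 cells at each day (rows). Colour is log10(CPM + 1) and the printed numbers are CPM. The C1q genes stand out in the macrophage rows, C3 and C4b in the day 0 mesothelial and fibroblast rows, and Hc in the AT2 rows.

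The 3 C1q genes lie in 1 cluster on chromosome 4, all on the minus strand, within 18675 bp (GRCm38, GENCODE M21): C1qb at chr4:136880129-136886187, C1qc at chr4:136889804-136893065 and C1qa at chr4:136895917-136898803. Their upstream sequences are shown because the 3 genes shared their source cell on every day but not their course over time. C1qb and C1qc were found in the RefSeq promoter table (GRCm38.p6) and are given 5′ to 3′ on the minus strand, with matches to the PU.1 (SPI1) core GAGGAA and to the NF-kB pattern GGGNNNNNCC in capitals. The C1qb stretch is chr4:136886201-136886450 and the C1qc stretch is chr4:136893066-136893164.
C1qb: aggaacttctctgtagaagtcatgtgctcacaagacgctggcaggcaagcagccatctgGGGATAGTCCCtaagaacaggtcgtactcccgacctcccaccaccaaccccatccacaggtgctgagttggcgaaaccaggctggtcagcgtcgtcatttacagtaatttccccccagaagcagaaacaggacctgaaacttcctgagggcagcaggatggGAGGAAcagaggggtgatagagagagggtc
C1qc: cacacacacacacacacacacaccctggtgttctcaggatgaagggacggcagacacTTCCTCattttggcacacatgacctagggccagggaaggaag
C1qb held GAGGAA starting 30 bases before its RefSeq start, and C1qc held it on the opposite strand (ttcctc) at 193 bases before its own. The C1qc stretch ends where the GENCODE gene body begins, so the bases nearer its RefSeq start are not shown. In C1qb, overlapping NF-kB matches on both strands began at 191 and 190 bases before the start. C1qc also had overlapping NF-kB matches, at 41 and 40 bases before its start, in the bases not shown. The interferon-stimulated element GAAANNGAAA, the C/EBP pattern TTGCNNAA, the MAF half-site TGCTGAC and the NKX2-1 core CTCAAG, also searched on both strands, had no match in either. Of 32851 promoter windows in that table, 23.3% held GAGGAA, 45.8% the NF-kB pattern, 9.56% the C/EBP pattern, 2.98% the interferon-stimulated element, 3.81% the MAF half-site and 13.3% the NKX2-1 core, so these matches are a description of the letters alone.

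C1q transcripts came from macrophages in culture, and their level there was lowest at day 8 for C1qa. In macrophage-like cells C1qa, the A chain, stood at 947 CPM at day 0 (922 to 971), 253 at day 8 (250 to 256), 1689 at day 13 (1677 to 1701) and 2422 at day 20 (2408 to 2436). C1qb, the B chain, stood at 858 CPM (835 to 881), 1608 (1600 to 1616), 5897 (5874 to 5919) and 5782 (5761 to 5804). C1qc, the C chain, stood at 572 (553 to 591), 596 (591 to 601), 2661 (2646 to 2676) and 3180 CPM (3164 to 3196). All 3 chains were thus several-fold higher at days 13 and 20 than at day 8. C1qa alone among them was lower at day 8 than in the pooled macrophages of day 0. The macrophages of day 8 lay in other sub-clusters than those of days 13 and 20: day 8 gave 2408 of 2426 cells of a sub-cluster led by Lat2 and Hal and 1165 of 1195 cells of one led by Ctsk and Ccn3, whereas one led by Fcrls and Apoe took 2997 of 3154 cells from day 13 and one led by Ngfr took 1562 of 1657 from day 20.

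A difference between days was counted as higher or lower where it was at least 2-fold, the higher library had at least 20 CPM and the counting interval of the ratio excluded 1. From day 8 to day 20, 4 of the 5 members that reached 20 CPM in macrophages counted as higher and 0 as lower, where 5.89% of 5839 genes counted as higher and 5.77% as lower. C1qa was 9.58-fold higher (9.46 to 9.71), C1qc 5.34-fold (5.29 to 5.39), C3 5.17-fold (4.83 to 5.54) and C1qb 3.60-fold (3.57 to 3.62). C4b, at 1.81-fold (1.72 to 1.92), stayed under 2-fold. Cfb and Hc did not reach 20 CPM in either library. The median log2 ratio was 2.37 over the 5 members and -0.00038 over all genes.

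Most of that difference lay between days 8 and 13. There, 5 of 5 members counted as higher, where 4.27% of all genes did and 6.51% counted as lower: C1qa 6.68-fold, C1qc 4.46-fold, C1qb 3.67-fold, C4b 2.60-fold and C3 2.58-fold. From day 13 to day 20, 1 of 5 counted as higher (C3, 2.0-fold, 1.88 to 2.14) and 0 as lower, against 1.81% and 0.922% of all genes, and C1qb was at a ratio of 0.981. From day 0 to day 8, 0 of 6 counted as higher and 4 as lower, where 10.2% and 19.5% of all genes did: C1qa at 0.267 of its day 0 level, C4b at 0.289, Cfb at 0.143 and C3 at 0.115. From day 0 to day 20, 3 of 6 counted as higher (C1qb 6.74-fold, C1qc 5.56-fold, C1qa 2.56-fold) and 0 as lower, against 10.9% and 18.9%.

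**Figure D2:**
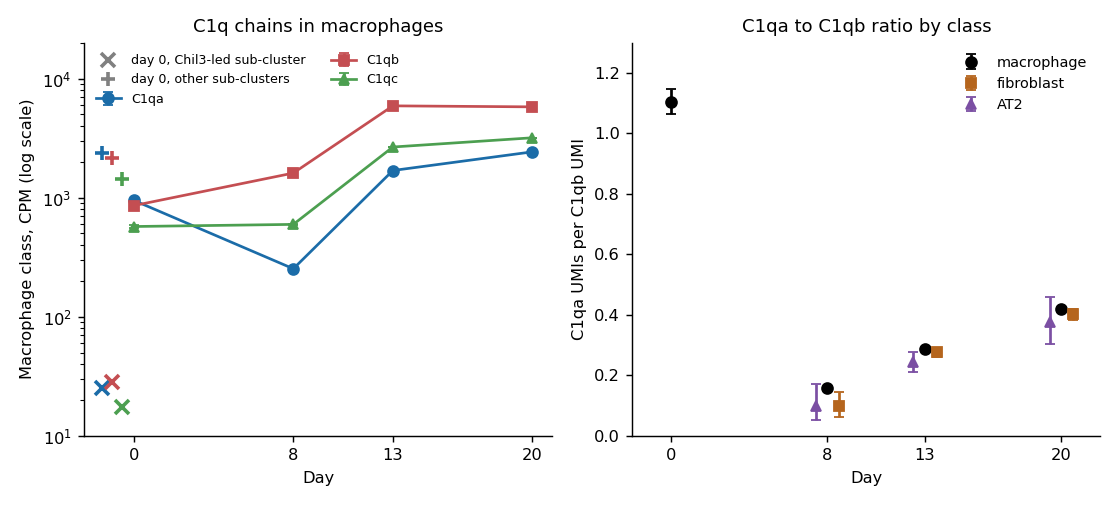
Left, C1qa, C1qb and C1qc in macrophage-like cells by day, in CPM on a log axis, with bars for the 95% Poisson interval; crosses and plus signs give the Chil3-led and the other day 0 macrophage sub-clusters. Right, C1qa UMIs per C1qb UMI in macrophage-, fibroblast- and AT2-like cells by day. Over the whole macrophage class, C1qa dips at day 8 to 253 CPM while C1qb does not, and the ratio of the pair falls to 0.157. C1qb at day 8 (1608 CPM) was nevertheless below the 2135 CPM of the other day 0 sub-clusters.

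The chains therefore did not keep a fixed ratio. Macrophages held 1.10 C1qa UMIs per C1qb UMI at day 0 (1.06 to 1.15), 0.157 at day 8 (0.155 to 0.159), 0.286 at day 13 (0.284 to 0.289) and 0.419 at day 20 (0.416 to 0.422). C1qc per C1qb UMI was 0.667, 0.371, 0.451 and 0.550 on the same days. Both ratios were highest at day 0 and lowest at day 8. UMIs here count 3′ ends and are not scaled by length, so a ratio between genes compares tagged molecules.

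The day 0 value mixed macrophages with very different C1q levels. A sub-cluster of 578 of the 876 cells, led by Chil3 and Ear1, genes known from alveolar macrophages, had 25 CPM of C1qa, 28.6 of C1qb and 17.4 of C1qc. The remaining 298 cells had 2366 CPM of C1qa, 2135 of C1qb and 1426 of C1qc, which were among the leading genes of their main sub-cluster. C3 and Cfb lay the other way: the Chil3-led cells had 137 CPM of C3 and 36.7 of Cfb, and the others 37.3 and 8.80. C4b stood at 2.99 CPM in the Chil3-led cells and at 224 in the others. This split, made after the data were seen, decides the comparisons with day 0. Against the 298 cells alone, C1qa at day 20 was at a ratio of 1.02, C1qb at 2.71, C1qc at 2.23 and C3 at 1.56, and at day 8 C1qa was at 0.107, C1qb at 0.753, C1qc at 0.418 and C4b at 0.116. Against the Chil3-led cells alone, C1qa at day 8 was 10.1-fold higher and C4b 8.69-fold higher, the opposite direction to the pooled comparison. That baseline was low, with 92 UMIs of C1qa and 11 of C4b. Its 25 CPM of C1qa compare with 20.8 in smooth muscle and pericyte-like and 62.0 in T and NK-like cells of day 0. Its 2.99 CPM of C4b compare with 3.35 in B-like cells. The part of free RNA in this baseline was not tested. C3 at day 8 was at 0.0819 of the Chil3-led level and at 0.301 of the level of the others.

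Within each cultured library the macrophage sub-clusters also differed in C1q. At day 8, C1qa ranged from 82.0 CPM in a sub-cluster of 917 cells led by Mmp12 and Arg1 to 330 in a sub-cluster of 2408 cells led by Lat2, Hal and Arg1, both of which had C1qb over 1000 CPM (1181 and 2077). At day 13, a sub-cluster of 760 cells led by Ctsk and Fabp4 had 2651 CPM of C1qa, and one of 2997 cells led by Fcrls and Apoe had 1389. At day 20, a sub-cluster of 275 cells led by Ubd, H2-Ab1 and Cxcl9 had 4795 CPM of C1qa, 7714 of C1qb and 4302 of C1qc. A day 20 sub-cluster of 1562 cells led by Ngfr and Cd209f had 1473 CPM of C1qa and 5004 of C1qb. The sub-clusters were made from the same cells, so these ranges describe them and are not tests.

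**Figure D3:**
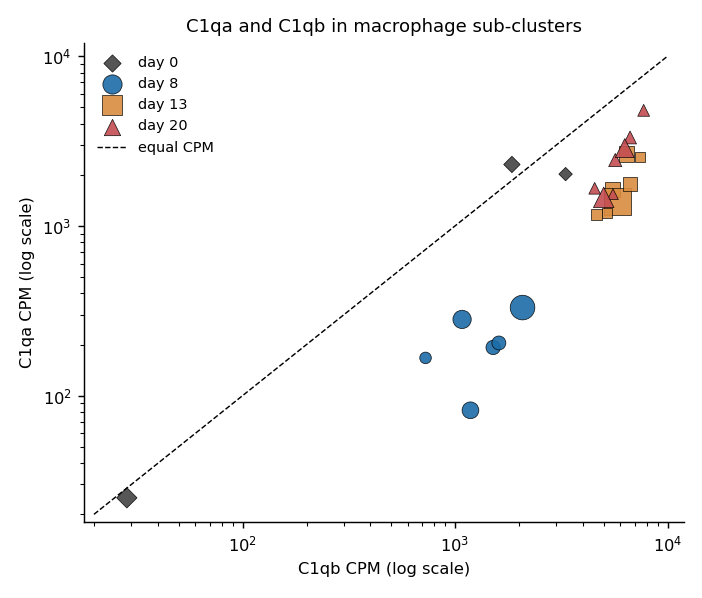
C1qa against C1qb in macrophage-like sub-clusters of at least 40 cells, both in CPM on log axes; colour and shape give the day, marker area grows with the number of cells, and the dashed line marks equal CPM. The cultured sub-clusters lie on the C1qb side of the line, with 726 to 2077 CPM of C1qb at day 8 and 4537 to 7714 at days 13 and 20.

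By share of all UMIs of a gene, macrophages held 99.0% of C1qa, 98.9% of C1qb and 99.0% of C1qc at day 8, and 93.0% to 96.6% at days 13 and 20. At day 0 they held 56.3%, 56.6% and 58.0%, and the class named by neutrophil markers held 27.8% of C1qa. The C1q in that class sat in a single sub-cluster of 148 cells with 1070 CPM of C1qa, which was led by the neutrophil genes Camp and Ngp together with the macrophage genes Mgl2 and Ccl7 and had 5.72 times the median UMI count of its library. The other 2 neutrophil sub-clusters had 23.5 and 130 CPM. The class left as unnamed leukocytes (739 cells at day 0) was mixed. It held sub-clusters of 249 cells led by Scgb3a2 and Scgb1a1, 122 led by Ccl21a and Dcn, and 105 led by Ager, among others. This mixed class had 504 CPM of C1qa at day 0 and 12.2% of the gene's UMIs. Beyond these, C1qa at day 0 was 62.0 CPM in T and NK-like cells, 46.1 in dendritic-like cells and 23.0 in monocyte-like cells, and the counting intervals of these neighbours in the order overlapped.

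Cultured epithelial and fibroblast cells also carried C1q UMIs. C1qb in fibroblasts was 14.1 CPM at day 0 (5 UMIs), 22.1 at day 8, 296 at day 13 and 110 at day 20. In AT2-like cells it was 9.99 CPM at day 0 (4 UMIs), then 20.0, 145 and 39.8. At day 13 it was 926 CPM in the unnamed epithelial class (364 cells), 427 in squamous-like, 249 in ciliated-like, 181 in basal-like and 108 in airway secretory-like cells, all below the 5897 CPM of macrophages. At day 13 these levels differed between classes beyond counting error. The unnamed epithelial class included 135 day 13 cells named by macrophage markers, in a sub-cluster led by Pf4, Fcer1g and C1qb. Its other day 13 sub-clusters scored highest for mesothelial (107 cells), neuroendocrine (101) and fibroblast markers (21). The C1qa to C1qb ratio in the cultured epithelial and fibroblast classes was lowest at day 8 and near or below that of the macrophages of the same library. At day 13 it was 0.276 in fibroblasts (0.262 to 0.290), 0.274 in squamous-like, 0.283 in basal-like, 0.293 in unnamed epithelial and 0.237 in airway secretory-like cells (0.188 to 0.297), all with intervals that held the 0.286 of macrophages. It was lower in AT2-like cells, at 0.243 (0.211 to 0.279), and in ciliated-like cells, at 0.196 (0.168 to 0.227). At day 20 it was 0.401 in fibroblasts and 0.375 in AT2-like cells against 0.419. At day 8 it was 0.097 in fibroblasts (0.062 to 0.146), below the 0.157 of macrophages, and 0.099 in AT2-like cells (0.053 to 0.172). In fibroblasts, macrophage markers were highest at day 13, as C1q was: the 13 markers summed to 101, 206 and 131 CPM in fibroblasts at days 8, 13 and 20, against 5044, 4706 and 4260 in macrophages. In AT2-like cells they summed to 68.9, 79.8 and 53.0 CPM, a far smaller difference between days than that of C1qb there. The part of macrophage RNA in these values was not tested.

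In fibroblasts, the 3 C1q genes counted as higher from day 8 to day 13, out of 4 tested members and against 1.44% of genes (lower, 0.357%). They did so from day 8 to day 20 as well (C1qa 20.6-fold, C1qc 11-fold, C1qb 4.98-fold), against 1.88% (lower, 0.733%). From day 13 to day 20, 0 of 4 were higher and 2 lower (C1qb at 0.372 and C1qc at 0.463), against 0.832% and 0.886%. From day 0 to day 20, 3 of 6 were higher (the C1q genes, from 3 to 7 UMIs at day 0) and 3 lower (C3, C4b and Cfb), against 18.5% and 32.7%. C1q in the fibroblast class was thus highest at day 13. In AT2-like cells from day 8 to day 13, 4 of 5 were higher (C1qa, C1qb, C1qc and Hc) and 0 lower, against 1.18% and 2.81%. From day 13 to day 20, 0 of 5 were higher and the 3 C1q genes were lower, against 2.41% and 2.14%. Airway secretory-like cells over the same days had 0 of 4 higher and 1 lower (C1qb at 0.300), against 3.37% and 3.02%. T and NK-like cells from day 0 to day 20 had 0 of 3 higher and 1 lower (C1qa at 0.328), against 11.6% and 19.3%. The class was drawn from different sub-clusters on the 2 days. Of its 61 day 20 cells, 58 lay in a sub-cluster that held 12 of its 755 day 0 cells. The leaders of that sub-cluster over all days included Prtn3, Mpo and Elane, genes known from granulocyte precursors. They also included Gzmb, Prf1 and Nkg7, the last a T and NK marker. In the clustering of all cells, the day 20 cells lay in a cluster led by Gzmb, Ccl5, Ms4a4b and Nkg7.

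Cells with at least 1 C1qb UMI were compared after thinning each cell to 2000 UMIs, which left out 115, 23, 43 and 54 macrophages. The share was 29.0%, 72.5%, 99.2% and 99.4% of macrophages at days 0, 8, 13 and 20, and 34.0%, 87.6%, 99.7% and 99.8% without thinning. In fibroblasts the thinned share was 2.60%, 5.94%, 28.7% and 12.8%, and the part of macrophage RNA in it was not tested. For C1qa the macrophage share was 28.0%, 21.1%, 76.6% and 86.1%. Median depth was 6091, 16897, 7854 and 10104 UMIs in macrophages and 2257, 19278, 17943 and 19200 in fibroblasts.

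C4b encodes C4, the substrate of C1s and the second component to act in the classical pathway. It lies at chr17:34728380-34743882 (GRCm38, minus strand). The near-identical C4a had no row in the count tables. How reads shared by the pair were counted is not given, so whether C4b includes some of them is not known. At day 0 C4b was highest in mesothelial-like cells (2463 CPM, 2378 to 2550), followed by fibroblasts (597, 519 to 683), smooth muscle and pericyte-like cells (104, 87.8 to 122) and macrophages (89.9, 82.5 to 97.8). The last pair of intervals overlapped. Mesothelial-like cells held 74.9% of all C4b UMIs at day 0, macrophages 12.9% and fibroblasts 4.98%. The mesothelial-like sum held 1286650 UMIs from 150 cells with a median of 1558. The mesothelial levels and shares of C4b, C3 and Cfb thus rest mainly on its deeper cells.

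In the cultures the leading source of C4b was the macrophage class. It held 93.4%, 83.7% and 64.1% of C4b UMIs at days 8, 13 and 20, and fibroblasts 5.32%, 11.3% and 34.1%. Levels were 26.0, 67.7 and 47.2 CPM in macrophages and 13.2, 17.0 and 19.3 CPM in fibroblasts. The culture fibroblasts were therefore far below those of day 0, at a ratio of 0.0221 for day 8 (0.0178 to 0.0273) and 0.0323 for day 20 (0.0279 to 0.0376). C4b was uneven among the macrophages of day 8: a sub-cluster of 1165 cells led by Ctsk, Ccn3 and F7 had 111 CPM of C4b, whereas the 2408-cell sub-cluster led by Lat2 had 3.23. At day 0 a sub-cluster of 40 macrophages led by Prg4, Saa3 and Alox15 had 1161 CPM of C4b, itself one of its leading genes, and one of 241 cells led by Mgl2 and Retnla had 73.8. After thinning, 81.0% of mesothelial-like cells had a C4b UMI (median depth 1558 UMIs, 87 of 150 cells left out), against 0.325% of AT1-like cells (median 2740).

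**Figure D4:**
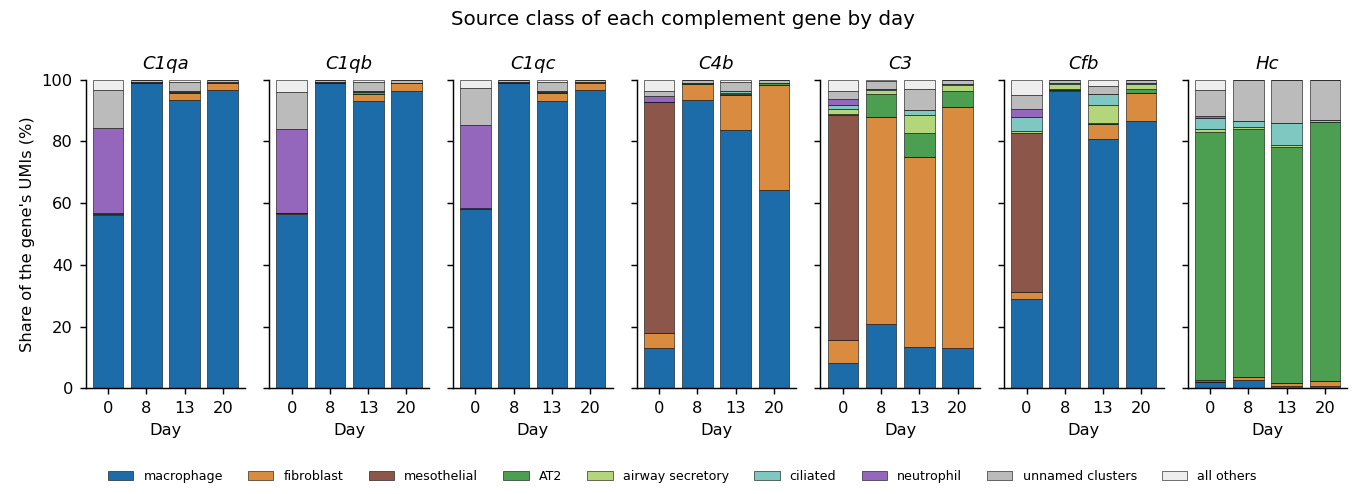
Share of each gene's UMIs held by each class at days 0, 8, 13 and 20, in percent of all its UMIs in used cells. C1q bars are nearly all macrophage in culture, C4b, Cfb and C3 are mostly mesothelial at day 0, and Hc is mostly AT2 on every day.

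C3, the component that all pathways cleave, had mesothelial-like cells as its leading source at day 0 and fibroblasts in culture. It lies at chr17:57203970-57228136 on the minus strand, and the 250 bases before its RefSeq start (chr17:57228137-57228386, GRCm38.p6, 5′ to 3′ on the minus strand) are shown because its C/EBP and NF-kB matches, in capitals, are of the factors known to drive C3 in inflammation.
C3: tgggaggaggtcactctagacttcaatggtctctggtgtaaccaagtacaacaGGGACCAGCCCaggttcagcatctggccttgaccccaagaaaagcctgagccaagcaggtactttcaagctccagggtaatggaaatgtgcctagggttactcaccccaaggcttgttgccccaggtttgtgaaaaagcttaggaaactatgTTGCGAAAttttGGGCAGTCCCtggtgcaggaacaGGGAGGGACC
The C/EBP pattern began 45 bases before the start (ttgcgaaa), and the NF-kB pattern began at 197, 196, 33 and 10 bases before it, the first pair overlapping. None of the other 4 patterns had a match there. Of all promoter windows, 9.56% held the C/EBP pattern and 45.8% the NF-kB pattern, so the matches describe the letters alone. Their part in the C3 levels was not tested.

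Mesothelial-like cells had 4098 CPM of C3 (3988 to 4210) and 72.8% of its UMIs at day 0, and fibroblasts had 1544 CPM (1417 to 1679) and 7.54%. Among classes of at least 50 cells, monocyte-like cells (103 CPM) and macrophages (97.8) came next at day 0, with overlapping intervals. The 23 airway secretory-like cells of day 0 had 158 CPM (130 to 191). In culture, fibroblasts held 67%, 61.4% and 78.3% of C3 UMIs at days 8, 13 and 20, at 321 (311 to 332), 245 (238 to 251) and 271 CPM (267 to 275). Those levels were at 0.208 (0.190 to 0.228) of the day 0 fibroblast level at day 8 and at 0.175 (0.161 to 0.191) at day 20. Between days 8 and 20 the fibroblast ratio was 0.842, under 2-fold. The labels do not separate MLg cells from fibroblasts of the sorted lung. The tdTomato reporter stood at 161 CPM in day 0 fibroblasts and at 3.43, 4.52 and 1.93 CPM in culture fibroblasts, against 104, 56.0 and 53.3 CPM in culture macrophages. Whether a change within cells or a different set of fibroblasts lies behind the lower levels was not tested.

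Epithelial C3 was smaller but differed between days. AT2-like cells stood at 57.4 CPM at day 0 (36.4 to 86.2, 23 UMIs), 59.7 at day 8, 105 at day 13 and 128 at day 20 (120 to 135). The day 20 level was 2.14-fold that of day 8 (1.91 to 2.4) and 2.22-fold that of day 0 (1.47 to 3.52), and days 0 and 8 did not differ beyond counting error. Airway secretory-like cells had 145 CPM at day 13 (133 to 158) and 115 at day 20 (104 to 127), above the AT2 value at day 13 and with an overlapping interval at day 20. Ciliated-like cells had 41.4 CPM at day 0 and 40.6 at day 13, basal-like cells 35.1, and squamous-like cells 6.55. Epithelial cells thus differed by a wide margin among themselves at day 13, from the secretory to the squamous class.

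In macrophages C3 was 97.8, 11.2, 29.0 and 58.1 CPM at days 0, 8, 13 and 20. The day 20 sub-cluster led by Ubd and Cxcl9 had 115 CPM of C3, a sub-cluster of 1271 cells led by Rnase2a and Iigp1 had 94.1, and the Ngfr-led sub-cluster had 20.6. After thinning, 68.8%, 34.2%, 28.4% and 30.7% of fibroblasts had a C3 UMI at days 0, 8, 13 and 20 (70.2%, 56.7%, 47% and 51.4% without thinning). The AT2 shares were 14.5%, 13.2%, 22.5% and 21.6%. AT1-like cells at day 0 had 0.325% and squamous-like cells at day 13 had 0.752% (median depth 14114 UMIs), against 22.5% for AT2-like cells of that day (13042).

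**Figure D5:**
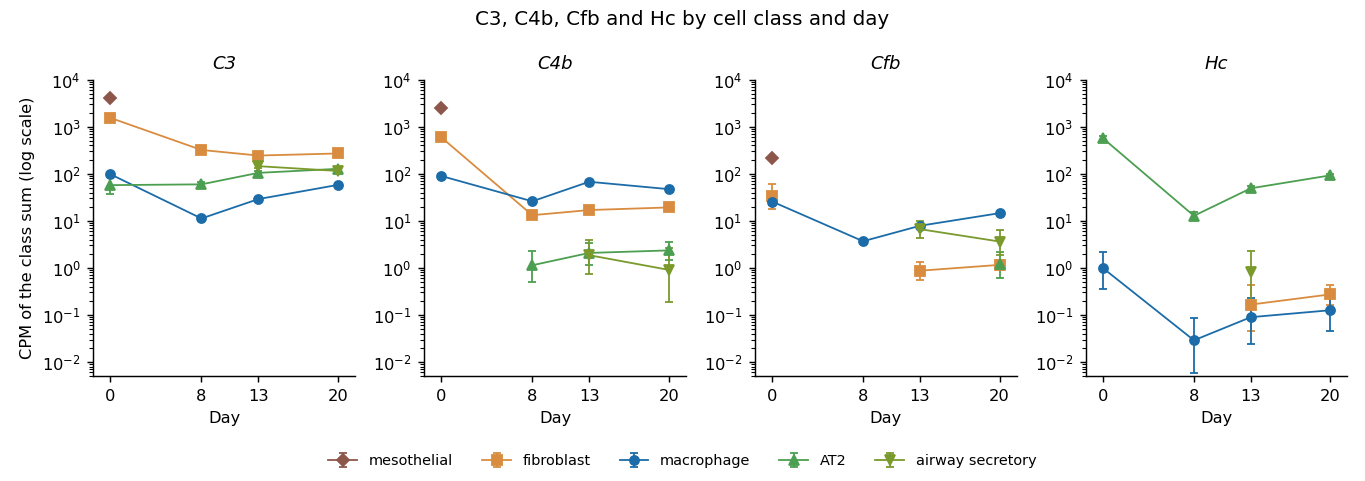
C3, C4b, Cfb and Hc by day in mesothelial-, fibroblast-, macrophage-, AT2- and airway secretory-like cells, in CPM on a log axis, with bars for the 95% Poisson interval; points with fewer than 3 UMIs are not drawn. Hc in AT2-like cells drops from 569 CPM at day 0 to 12.8 at day 8 and reaches 92.8 at day 20.

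Cfb, which encodes the factor B protease, had mesothelial-like cells as its leading source at day 0 and macrophages, at low levels, in culture. It lies at chr17:34856374-34862518, minus strand, and the readthrough gene Gm20547 overlaps 6107 bp of it on the same strand. Gm20547 had 0 UMIs in every class, so no reads were assigned to that partner. How reads shared by the pair were counted is not given, so whether Cfb lost some of them is not known. At day 0 the levels were 217 CPM in mesothelial-like cells (192 to 244), 33.9 in fibroblasts (17.5 to 59.3, 12 UMIs) and 25.7 in macrophages (21.8 to 30.1), the latter pair with overlapping intervals. Mesothelial-like cells held 51.6% of Cfb UMIs and macrophages 28.8%. In culture, macrophages held 96.2%, 80.9% and 86.7% at days 8, 13 and 20, at only 3.68, 7.86 and 14.6 CPM. That is a 3.96-fold ratio from day 8 to day 20 (3.49 to 4.50), below the 20 CPM that a count needed. Fibroblasts had 0.171 CPM at day 8 (2 UMIs), 0.871 at day 13 and 1.16 at day 20. The Rnase2a- and Iigp1-led day 20 macrophages had 28.2 CPM. Airway secretory-like cells had 6.66 CPM at day 13 and 3.63 at day 20.

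Hc, which encodes C5, the first component of the terminal pathway, was an AT2 transcript on every day. It lies at chr2:34983331-35061438 on the minus strand. The 224 bases before its gene body (chr2:35061439-35061662, RefSeq, GRCm38.p6, 5′ to 3′ on the minus strand) are shown as a stretch that none of the 6 patterns matched. Even the most frequent pattern, that of NF-kB, was in only 45.8% of all promoter windows. The lack of a match is therefore common and describes the letters alone.
Hc: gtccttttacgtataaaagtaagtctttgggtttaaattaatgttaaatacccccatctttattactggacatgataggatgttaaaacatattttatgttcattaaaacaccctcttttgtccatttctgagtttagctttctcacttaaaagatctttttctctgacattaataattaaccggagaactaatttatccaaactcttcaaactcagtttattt
Hc stood at 569 CPM in AT2-like cells at day 0 (498 to 648, 228 UMIs), 12.8 at day 8 (10.3 to 15.7), 49.2 at day 13 (44.2 to 54.6) and 92.8 at day 20 (86.5 to 99.3). AT2-like cells held 80.3%, 80.4%, 76.5% and 83.9% of all Hc UMIs, and cells of an unnamed epithelial class most of the rest (12.5%, 13.8% and 13.1% at days 8, 13 and 20). Day 13 ciliated-like cells had 7.53 CPM, day 0 ciliated-like cells 4.26, and each other named class of at least 50 cells under 2 CPM. The AT2 cells of the days compared lay in different sub-clusters: the sub-cluster led by Slc34a2 and Lamp3 held 81 of 83 AT2 cells at day 0, 34 of 387 at day 8, 76 of 474 at day 13 and 60 of 600 at day 20. Sub-clusters of 165 and 104 cells at day 20 had 3 and 0 cells at day 8. At day 8 the AT2 level was at 0.0225 of day 0 (0.0174 to 0.0288). It then was 3.84-fold higher at day 13 than at day 8 (3.04 to 4.90) and 7.25-fold higher at day 20 than at day 8 (5.83 to 9.12), yet day 20 was at 0.163 of day 0 (0.141 to 0.189). Averaging CPM over cells in place of summing UMIs gave 3.97-fold for day 20 against day 8.

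In AT2-like cells from day 8 to day 20, 2 of 3 tested members counted as higher (Hc and C3) and 0 as lower, against 3.44% and 5.86% of genes. From day 0 to day 8, 0 of 3 were higher and 1 lower (Hc), against 15% and 18.7%. From day 0 to day 20, 2 of 3 counted as higher (C1qb 3.98-fold from 4 UMIs at day 0, and C3) and 1 as lower (Hc), against 9.15% and 17.9%. The cultured AT2 class held 11 or 12 of 13 airway secretory markers at 5 CPM or more, against 5 of 13 at day 0, beside its own 12 of 12.

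Hc differed between AT2 cells of a library. At day 20, a sub-cluster of 60 cells led by Slc34a2 and Lamp3 had 191 CPM, one of 185 cells had 142, one of 104 cells led by Iigp1 and H2-Q7 had 73.5, and one of 82 cells led by Sftpa1 and Scd1 had 7.2. AT2 cells whose reporter UMIs were at least 80% EGFP had 21.5 CPM of Hc at day 8 (11.7 to 36.0), 73.8 at day 13 (59.5 to 90.6) and 150 at day 20 (127 to 176). Those with at least 80% tdTomato had 12.5 (8.94 to 17.0), 42.2 (35.9 to 49.4) and 83.2 (73.3 to 94.0). The intervals overlapped at day 8 and not at days 13 and 20. For C3 the EGFP and tdTomato cells had 102 and 121 CPM at day 20, with overlapping intervals. These cells share 1 library a day, so the intervals do not cover the spread between cultures. After thinning, which left out 14, 16, 17 and 31 AT2 cells, 50.7%, 3.23%, 8.97% and 14.4% of them had an Hc UMI, and 63.9%, 12.4%, 29.1% and 37.5% without thinning. At most 0.394% of macrophages did after thinning. Median depth in AT2 cells was 4034, 14264, 13042 and 13647 UMIs.

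The other genes of the complement system were read from lists of known components; 47 of 48 had a row. Among classical-pathway proteases, C1ra and C1s1, which encode the partners of C1q, were mesothelial (397 and 635 CPM) and fibroblast transcripts at day 0 (353 and 565), as was C2 in mesothelial-like cells (622). In culture C1ra was 46.5, 68.8 and 83.3 CPM in fibroblasts, against 6.81, 9.54 and 19.8 in macrophages. C1s1 at day 8 was 92.6 CPM in fibroblasts and 0.664 in macrophages. Cfp, which encodes properdin, the stabiliser of the alternative convertase, was a macrophage transcript at 167, 554, 746 and 599 CPM. C6, a partner of C5b in the attack complex, followed Hc in AT2-like cells at 102, 14.2, 43.9 and 53.7 CPM (0.139 of day 0 at day 8, 3.78-fold from day 8 to day 20). C7 was at 331 CPM in day 0 fibroblasts and had 0 UMIs in day 8 fibroblasts. Of the lectin pathway, Fcna (ficolin A) was in macrophages at 57.1, 50.9, 155 and 82.7 CPM.

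Day 8 fibroblasts had lower levels of most complement genes than day 0 fibroblasts. Of 18 tested complement genes, 1 counted as higher and 15 as lower from day 0 to day 8, where 17.9% and 31.9% of all genes did, with a median log2 ratio of -2.94 against -0.26 over all genes. Of the members, 3 of 4 tested were lower (C3, C4b and Cfb). Serping1, the C1 inhibitor, went from 1753 to 19.4 CPM and C1s1 from 565 to 92.6. From day 8 to day 20, 1 of the 10 tested non-members counted as higher, Serping1 at 2.83-fold, and 0 as lower, against 1.88% and 0.733% of all genes.

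In macrophages from day 8 to day 20, 6 of 19 tested complement genes counted as higher and 2 as lower, with a median log2 ratio of 0.11. Over all genes in that comparison, 5.89% were higher and 5.77% lower. Of the 14 that are not members, 2 were higher, among them Cd55 (decay-accelerating factor, 9.71-fold), and 2 were lower, Lrp1 (0.296) and Itgam (0.406). The receptor list had 0 higher and 2 lower of 8. C3ar1, the C3a receptor, was 47.7, 315, 146 and 199 CPM over the days, and C5ar1, the C5a receptor, 127, 176, 97.5 and 113. Of genes known to be induced by interferon-gamma, 15 of 15 counted as higher from day 8 to day 20 (Psmb8 from 282 to 1007 CPM), whereas of 6 tested NF-kB and acute-phase genes 0 were higher and 3 lower. Between days 8 and 13, when most of the C1q difference lay, 6 of 9 interferon-gamma genes were higher, against 4.27% of all genes. From day 13 to day 20, 13 of 15 were higher, against 1.81% of all genes. Over that later step C3 alone of 5 tested members counted as higher. The part of the interferon-gamma and NF-kB genes in the complement values was not tested.

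Genes whose levels most resembled each member were ranked by Pearson's r of log2(CPM + 1) over 28 class sums of the 4 libraries, which share libraries, depth and free RNA. C1qa was closest to C1qc (r = 0.933), C1qb (0.916) and Fcna (0.911). C1qb was closest to C1qc (0.983), Fcrls (0.953) and Ccl12 (0.947). C4b was closest to Ccdc80 (0.882), Adam33 (0.832) and Cercam (0.829), and Cfb to Tpbgl (0.810), Smpd3 (0.755) and C2 (0.752). C3 had no gene above Dtx4 (0.769), followed by Ccbe1 (0.739) and Slit2 (0.738). Hc was closest to Mlc1 (0.962), Egfl6 (0.946) and Tinag (0.945).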

How the data were processed

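The 4 libraries were 10x Genomics 3′ v3.1 preparations, and the labels name the molecule as nuclear RNA. The authors deposited a matrix of raw UMI counts for each library; Cell Ranger 7.0.1 and the build mm10 are named in the submitters' processing notes. How the counting treated multi-mapped reads is not given in the sources used here. Barcodes with at least 500 genes and at most 15% mitochondrial UMIs were kept. Doublet-like barcodes were removed by Scrublet score (523, 719, 853 and 761), at an assumed rate of 0.8% per 1000 barcodes. The 4 libraries were clustered together with Scanpy 1.11.5 (2000 variable genes, 30 components, 15 neighbours, Leiden resolution 1), and classes were named from marker lists. UMIs were summed by class and day for classes of at least 50 cells. Where a class had fewer than 3 UMIs, a floor of 3 UMIs stood for it in a ratio. Members at or under that floor were given as levels. The calling rule was tested on simulated counts. Promoters came from RefSeq; those of C1qa, C4b and Cfb were not used here. EdgeR 4.0.16 gave the TMM factors, and intervals came from SciPy 1.17.1.

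Named genes were all 7 members, the members of the complement lists with at least 20 CPM in a class, up to 8 a list, and 3 genes of highest likeness per member. Other genes are named as leaders of sub-clusters. The members, matched by symbol, and the lists were chosen with earlier results of these data known. The sub-clusters of leukocytes and the split of the day 0 macrophages were added after seeing the data. Alternatives were TMM scaling, other filters, doublets kept, other resolutions, each library clustered alone, a mean over cells, no CPM minimum and other thinning. Results for some genes of the lists are not reported here.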

Additional observations from a re-analysis of the deposited data

Results flagged for a closer look

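Between days 0 and 20, 2 members counted as higher in 1 class and lower in another. C3 was at 2.22 of its day 0 level in AT2-like cells and at 0.175 in fibroblasts. C1qa was at 0.328 in T and NK-like cells (149 UMIs at day 0 and 12 at day 20), at 2.23 in fibroblasts (7 UMIs at day 0) and at 2.56 in macrophages. At day 20, 58 of the 61 T and NK-like cells belonged to a sub-cluster led by Prtn3, Gzmb, Mpo and Elane. Prf1 and Nkg7 were also among its leaders. That sub-cluster held 12 of the 755 T and NK-like cells of day 0, so the T and NK ratio compares different sub-clusters. The difference between the classes was not tested, since each day was 1 library. Without the Chil3-led day 0 sub-cluster the macrophage ratio of C1qa was 1.02.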

How the results depend on the processing

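For each member, the ratio of day 20 to day 8 in its leading class was recomputed under 9 alternatives, and all 7 ratios kept their side of 1 and of 2-fold. Ranges were 9.29 to 10.3 for C1qa, 3.48 to 3.83 for C1qb, 5.17 to 5.69 for C1qc, 1.55 to 1.82 for C4b, 3.32 to 4.02 for Cfb (macrophages), 0.720 to 0.912 for C3 (fibroblasts) and 3.97 to 8.62 for Hc (AT2). Of 90 ratios and list counts, 67 stayed within the counting interval, or 1.5 times the count, and 23 moved. TMM scaling gave C1qa 9.29, C1qb 3.48 and C1qc 5.17. The mean over cells gave C1qa 10.3, C1qb 3.83, C1qc 5.69, C4b 1.55, Cfb 3.32, C3 0.724 and Hc 3.97. Keeping doublet-like barcodes gave C1qb 3.65, C1qc 5.4 and C3 0.897, and 7 complement genes counted in fibroblasts against 4. Clustering each library alone gave C1qb 3.56, C1qc 5.28 and Hc 5.33. No filter on cells gave C3 0.720 and Hc 5.48, and the stricter filter gave C3 0.912. With no CPM minimum, 15, 14 and 7 complement genes counted in macrophages, AT2-like cells and fibroblasts, against 8, 3 and 4. The cause was not tested, apart from the CPM minimum, which admits more genes. Against the Chil3-led day 0 macrophages alone, day 8 C1qa was at 10.1 and C4b at 8.69, both reversed from 0.267 and 0.289 for all day 0 macrophages. The Chil3-led baseline held only 92 C1qa and 11 C4b UMIs. Shares of cells with a UMI moved beyond their interval in 132 of 245 values without thinning and in 108 of 245 at 1000 UMIs.

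No paired analysis was possible because each day had 1 library, so the groups share no more than replicate number 1, and no replicate could be left out. Counts behind several day 0 values are low: day 0 fibroblasts gave 12 Cfb UMIs and 3 to 7 of each C1q gene, and day 0 AT2-like cells gave 23 C3 and 4 C1qb UMIs.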
